A study of Mus musculus with 6 samples.

Results

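The TNF superfamily genes read out here are the receptors whose symbols begin with Tnfrsf, the ligands whose symbols begin with Tnfsf, the TRAF adaptors, and 19 named genes of the same signalling route, in biliary epithelial cells, which form the lining of intrahepatic bile ducts. The table lists 58 such genes, and 42 of them had a mean normalised count of at least 10 over the 6 libraries. They are 42 of 13490 genes with that mean and of 24404 genes listed. There were 3 libraries from Klf5 LKO mice (Alfp-CreTg/+;Klf5flox/flox) and 3 from control mice (Alfp-Cre+/+;Klf5flox/flox). All mice were adult C57BL/6 animals given DDC (diethoxycarbonyl-dihydrocollidine), a toxin used to injure bile ducts, for 1 week. Both groups carried the floxed Klf5 gene, and only the Klf5 LKO group carried the Cre, which acts in liver epithelial cells, so an effect of Cre itself and the loss of Klf5, a zinc-finger transcription factor, cannot be told apart. Whether the libraries of a group are separate animals is not stated in the labels, and the p-values then measure only the spread between these libraries, part of which may be technical.

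Ligands of this family are mostly trimers on the cell surface that bind receptors of the TNF receptor family. Some of the receptors carry a death domain, through which the adaptors Tradd and Fadd can recruit caspase 8, and others bind TRAF proteins directly. TRAF proteins carry the ubiquitin ligases Birc2 and Birc3, also called cellular inhibitors of apoptosis, which ubiquitinate Ripk1 and thereby favour NF-kB signalling over cell death. The same ligases, with Traf2 and Traf3, keep the kinase Map3k14 low and so restrain the alternative NF-kB route through Nfkb2 and Relb. In injured bile ducts the receptor Tnfrsf12a, which binds the ligand Tnfsf12, and the lymphotoxin beta receptor Ltbr are known for their part in the ductular reaction.

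Birc2 was the only one of the 42 members to pass the test, and it was higher in Klf5 LKO. Its neighbour on chromosome 9, Birc3, and the ligand Ltb also had all 3 Klf5 LKO libraries above all 3 control libraries, while the receptor Tnfrsf21 and the kinase Ripk3 had all 3 below, but these 4 did not pass. One member called of 42 is 2.38%, where 0.652% of all genes tested were called, 0.163% as higher and 0.489% as lower. No member passed as lower (0 of 42). At an unadjusted p under 0.05 there were 9 members (21.4%), against 10.9% of all genes tested. Groups did not overlap in 5 of the 42 (11.9%), against 15.6% of all genes tested, and these were 3 with higher values (7.72% of all genes) and 2 with lower values (7.88%). The median log2 fold change of the members was 0.01 and that of all genes tested -0.01, and 22 members had a higher and 20 a lower fitted mean in Klf5 LKO.

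The promoters of Birc2, Birc3 and Ltb, the 3 members with higher values and no overlap between groups, are shown because the deleted gene codes for a factor of the KLF family, which binds GC-rich and CACCC-like boxes. Each window runs from 250 bases before the start of a RefSeq transcript to 50 after it (GRCm38.p6), printed 5′ to 3′ along the gene's strand. Capitals mark matches to GGGNGNGG, a KLF-like box searched on both strands. The windows are chr9:7837008-7837307 (minus strand) for Birc2, chr9:7873121-7873420 (minus strand) for Birc3 and chr17:35194257-35194556 (plus strand) for Ltb.
Birc2: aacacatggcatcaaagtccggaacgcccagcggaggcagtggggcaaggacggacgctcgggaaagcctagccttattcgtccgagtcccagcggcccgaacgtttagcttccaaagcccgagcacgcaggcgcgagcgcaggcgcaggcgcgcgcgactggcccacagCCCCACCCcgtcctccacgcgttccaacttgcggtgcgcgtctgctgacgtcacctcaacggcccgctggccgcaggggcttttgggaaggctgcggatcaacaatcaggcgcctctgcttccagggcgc
Birc3: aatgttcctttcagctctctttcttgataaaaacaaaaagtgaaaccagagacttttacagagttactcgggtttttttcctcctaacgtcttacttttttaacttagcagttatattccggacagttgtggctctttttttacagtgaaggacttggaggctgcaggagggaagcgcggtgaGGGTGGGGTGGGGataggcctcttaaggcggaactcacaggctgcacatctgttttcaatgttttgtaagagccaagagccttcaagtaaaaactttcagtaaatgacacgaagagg
Ltb: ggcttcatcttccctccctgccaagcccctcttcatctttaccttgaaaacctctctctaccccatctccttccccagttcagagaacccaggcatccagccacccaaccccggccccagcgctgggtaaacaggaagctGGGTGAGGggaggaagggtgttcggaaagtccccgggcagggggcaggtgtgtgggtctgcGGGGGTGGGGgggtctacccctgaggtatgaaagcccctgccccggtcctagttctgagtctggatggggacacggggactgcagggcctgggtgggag
The Birc2 window held 1 match, the Birc3 window 2 that overlap and the Ltb window 3, of which 2 overlap. A second Birc2 start in RefSeq, chr9:7836757-7837056, held 1 match. The windows of Tnfrsf21 and Ripk3, the members with lower values and no overlap, also held 1 match each. Such a match is common: 49.5% of 32851 promoter windows of this length held at least 1, and 30 of the 43 windows found for 34 of the members did (69.8%). A match is a string of letters, not a site of binding.

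The kappaB consensus, the motif bound by NF-kB, was searched on both strands of the same windows. It stood in 9 of the 43 windows (20.9%), of 7 members, against 8.46% of all 32851 windows. Nfkb2 has more than 1 of the 9 windows, and its match at chr19:46305705-46305714 is counted in overlapping windows. The gene list was itself chosen to hold NF-kB pathway genes. The 7 members were Tnfrsf9, Tnfaip3, Nfkbia, Traf3, Ltb, Nfkb2 and Xiap. Of these, 1 match each of Nfkbia, Tnfaip3, Ltb and Nfkb2 is shown because their values recur below. Each is written along its gene's strand, with capitals over the whole match.
Nfkbia, chr12:55492667-55492676: GGAAATTCCC
Tnfaip3, chr10:19015413-19015422: GGAAATCCCC
Ltb, chr17:35194420-35194429: GGAAAGTCCC
Nfkb2, chr19:46304698-46304707: GGGAATTCCC
They begin 29, 12, 87 and 39 bases before the start site of their window. Neither Birc2 window nor the Birc3 window held these letters, which says nothing of sites elsewhere.

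The libraries matched their labels for the tissue. All 13 biliary epithelial markers had a mean of at least 10, and their summed normalised count was 593567 to 640735 in Klf5 LKO against 615299 to 758635 in control, with Spp1 the highest of them. Of the 13, 4 had a higher and 9 a lower fitted mean in Klf5 LKO (median log2 fold change -0.14). In Klf5 LKO 1 passed as higher and 1 as lower, where 0.652% of all genes tested were called. Groups did not overlap in 6 of the 13 (46.2%, against 15.6% of all genes tested), 3 with higher and 3 with lower values. Klf5 itself had 977, 1192 and 1183 in Klf5 LKO against 2056, 2018 and 2316 in control, a difference of -0.93 on the log2 scale (SE 0.14, adjusted p = 0.0103). Total reads recovered per library were 11726934 to 24784167. Markers of other cells were present at lower levels and differed between libraries. A leukocyte score, the mean log2(value + 1) of 15 leukocyte genes, was 6.60, 4.15 and 4.72 in Klf5 LKO 1, 2 and 3 and 8.08, 6.79 and 4.34 in control 1, 2 and 3, and the summed normalised count of the 15 was 958 to 2969 and 1063 to 5595. All 14 of them that were tested had a lower fitted mean in Klf5 LKO (median log2 fold change -1.35), and none (0) passed or had groups without overlap. The 11 macrophage markers summed to 1112 to 1577 in Klf5 LKO against 1470 to 1658 in control, with Csf1r the highest of them. Clec4f, Vsig4 and Cd5l had 0 reads in every library, and 7 of the 11 had a mean under 10. Summed hepatocyte markers were 17719 to 24816 in Klf5 LKO against 14646 to 19909 in control, and 6 of the 7 tested had a higher fitted mean in Klf5 LKO (median log2 fold change 0.34). Among these 7, Serpina1c and Ahsg rose, by 1.30 and 1.14 on the log2 scale (adjusted p = 0.000512 and 0.0377), with no overlap between groups. In such bulk libraries, fewer cells of a type and less RNA per cell cannot be told apart.

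**Figure D1:**
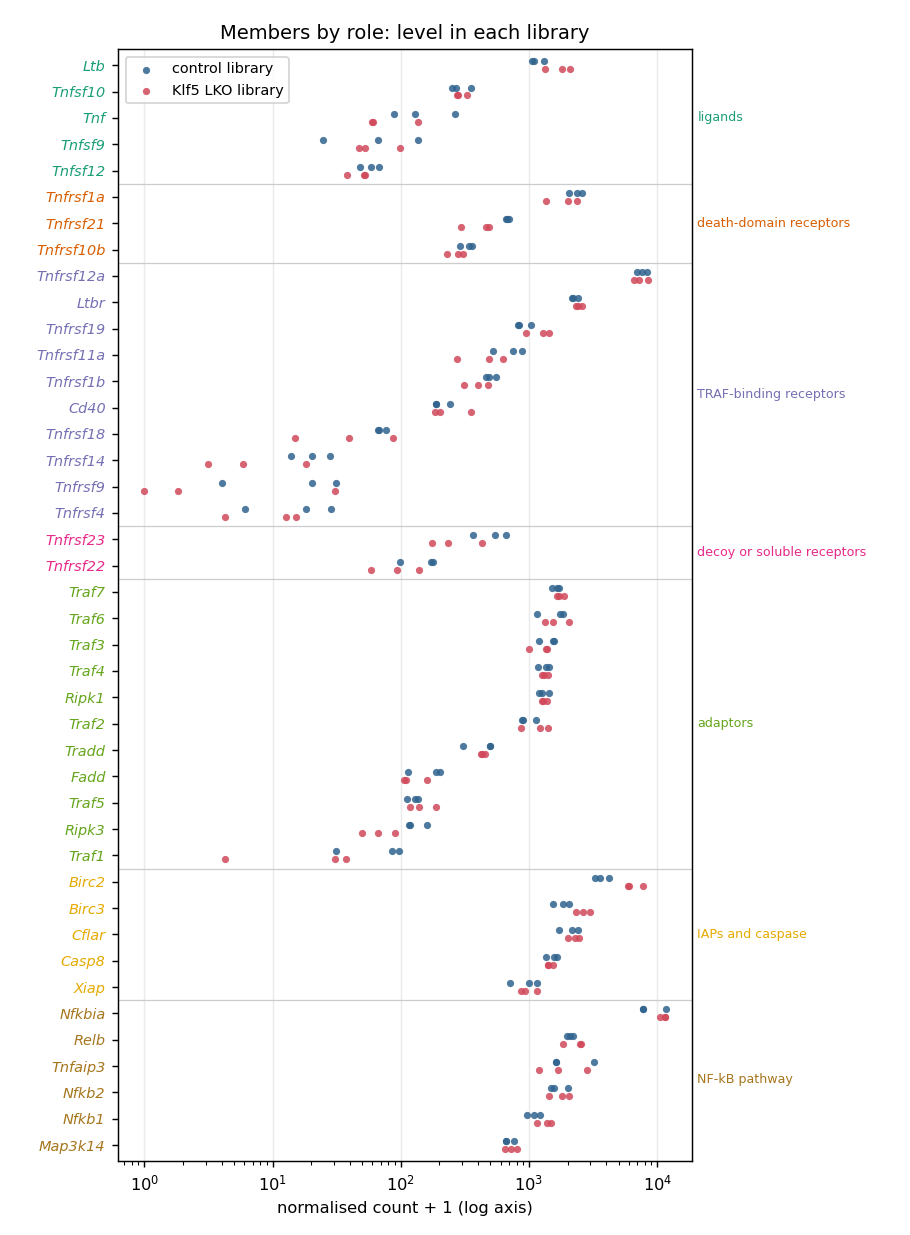
Normalised count + 1 (log axis) of each of the 42 members in each of the 6 libraries, grouped by role, with control libraries as blue points and Klf5 LKO libraries as red points. Most members sit close together across all libraries. The points of Birc2, Birc3, Ltb, Tnfrsf21 and Ripk3 separate by group (5 of 42, 11.9%, against 15.6% of all genes tested).

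Levels between genes were compared as the mean normalised count of the 6 libraries per kb of merged exons, a scale on which genes with many isoforms read low. Nfkbia, the inhibitor that holds NF-kB in the cytoplasm, led at 6269 ± 1167 per kb (SD over 6 libraries), followed by Tnfrsf12a at 3898 ± 391 per kb. These 2 were separate from each other and from the next member, Birc2 at 1120 ± 378 per kb, in the sense that their library values did not overlap. Of the 41 neighbouring pairs in the order, no other pair was separate in this way. Ltbr, Ltb and Tnfrsf1a followed at 995, 956 and 820 per kb. The lowest members with a mean of at least 10 were Tnfrsf4, Tnfrsf14, Traf1 and Tnfrsf9, at 9.67, 9.65, 5.28 and 5.08 per kb.

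Among the apoptosis inhibitors and caspase, 5 of 5 genes were tested. In Klf5 LKO 1 passed as higher, 0 passed as lower and the other 4 did not reach the threshold. Birc2 (chromosome 9, 7818227 to 7837064, minus strand, mm10) codes for a ubiquitin ligase recruited by TRAF proteins to TNF receptors. It had normalised counts of 7725, 6070 and 5924 in Klf5 LKO 1, 2 and 3 and 3275, 4215 and 3565 in control 1, 2 and 3. Every Klf5 LKO library stood above every control library, and Klf5 LKO 1 was the highest. The means were 6573 ± 1000.2 and 3685 ± 482 (SD, n = 3 each). The log2 fold change was 0.83 (SE 0.14) with a 95% confidence interval of 0.52 to 1.14 and an adjusted p of 0.0246, which is 1.78-fold. Of the 22 genes called higher in Klf5 LKO, Birc2 had the third highest mean level and ranked 14 by size of fold change.

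The call of Birc2 held in every other fit over all 6 libraries. Its adjusted p was 3.60e-06 with DESeq2, 0.0398 with edgeR and 0.0261 with limma-voom on the recovered reads. It also passed with the leukocyte score as a term, at 0.88 on the log2 scale (SE 0.16, adjusted p = 0.0435). The call ended without control 1 (log2 fold change 0.75, adjusted p = 0.159), without control 2 (0.93, adjusted p = 0.0646) and without control 3 (0.81, adjusted p = 0.0955). The hepatocyte genes Serpina1c and Ahsg, also among the 22 genes called higher, moved the same way as Birc2, and the part of hepatocyte RNA in its value was not tested. In the authors' deposited table Birc2 had 0.75 on the log2 scale and an adjusted p of 5.22e-06.

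Birc3 (chromosome 9, 7848699 to 7873186, minus strand) codes for the closest relative of Birc2 and lies 11.6 kb from it. Its normalised counts were 2967, 2618 and 2337 in Klf5 LKO against 1830, 1550 and 2044 in control. The lowest Klf5 LKO library stood above the highest control library. The log2 fold change was 0.55, with an SE of 0.15 and a 95% confidence interval from 0.23 to 0.87. It did not pass in the limma fit (adjusted p = 0.149), and it passed with DESeq2 on the recovered reads (adjusted p = 0.0242), where 2 members passed (4.76%) against 2.48% of all genes. In the authors' deposited table Birc3 had an adjusted p of 0.0246, and Birc2 and Birc3 were the only members under 0.05 there, against 2.41% of the genes with an adjusted p in that table.

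Within 200 kb of the pair, 3 other listed genes had a mean of at least 100, and they were chosen after their values were seen. All 3 had higher means in Klf5 LKO, and none of the 3 passed. Mmp20, tested in the same window at a mean of 13.7, went the other way without passing. Its log2 fold change was -1.73 (SE 1.05, adjusted p = 0.603), and its groups overlapped. Mmp7, a matrix protease gene of epithelia, had 6341, 5924 and 7811 in Klf5 LKO against 5686, 4977 and 5725 in control (log2 fold change 0.29, adjusted p = 0.470), with no overlap between groups. Tmem123 stood at 0.25 on the log2 scale (adjusted p = 0.517) and Yap1, the gene of the transcriptional coactivator of the Hippo pathway, at 0.39 (adjusted p = 0.436), and in both 1 control library reached into the Klf5 LKO range.

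**Figure D2:**
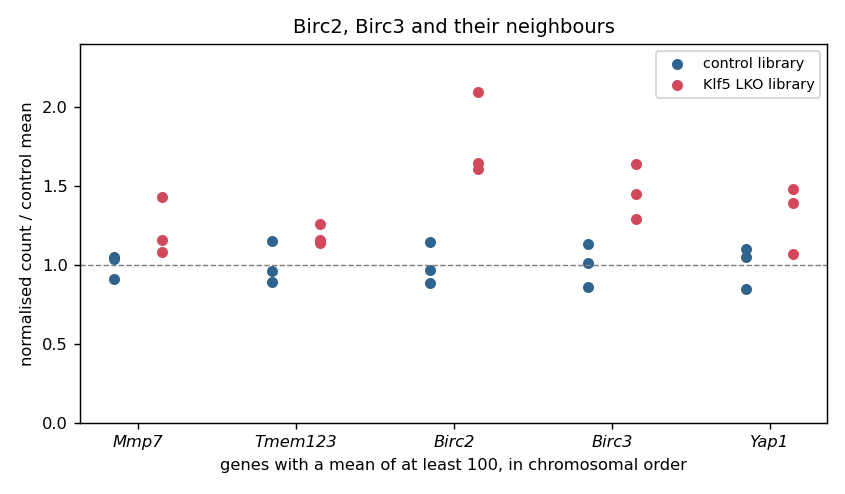
Normalised count divided by the control mean for Birc2, Birc3 and the 3 other genes with a mean of at least 100 within 200 kb, in chromosomal order, with control libraries in blue and Klf5 LKO libraries in red. Birc2 stands furthest from its controls, and the groups overlap for Tmem123 and Yap1.

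The other members of this role differed less. Cflar, which codes for a catalytically inactive relative of caspase 8 that limits its activation, had a log2 fold change of 0.11 (95% confidence interval -0.22 to 0.44). Casp8, the initiator caspase gene beside it on chromosome 1, had -0.07 (-0.36 to 0.23), and Xiap, which codes for a direct caspase inhibitor, had 0.06 (-0.37 to 0.49). All 3 intervals exclude a 2-fold change in either direction.

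**Figure D3:**
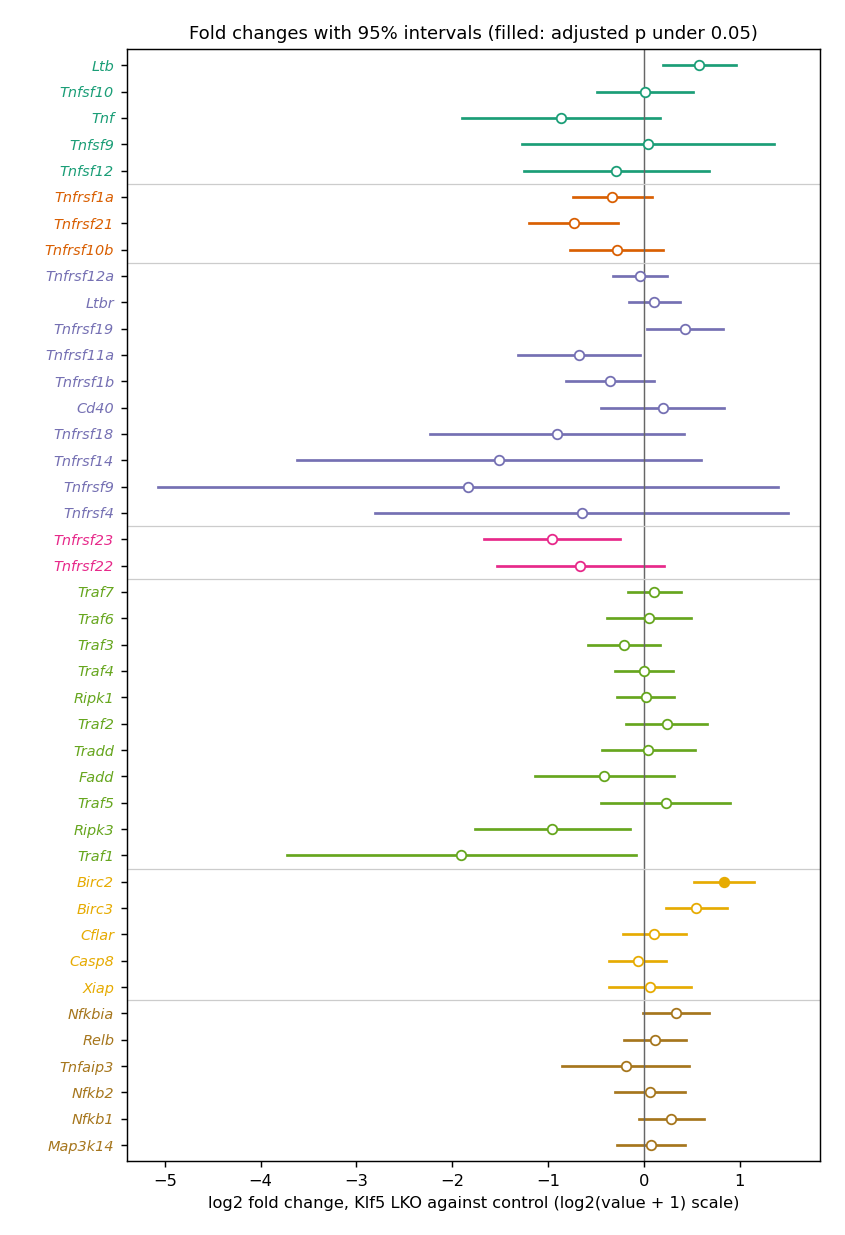
Log2 fold change of Klf5 LKO against control on the log2(value + 1) scale for the 42 members, grouped by role, with 95% confidence intervals as lines; a filled point passed at an adjusted p under 0.05. Birc2 is the only filled point, at 0.83, and the widest intervals belong to Tnfrsf9, Tnfrsf4, Tnfrsf14 and Traf1, the lowest members.

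Of 14 listed ligands, 5 were tested, and none passed in either direction. Ltb (chromosome 17, 35194439 to 35196320, plus strand), which codes for the membrane subunit of the lymphotoxin heterotrimer that binds Ltbr, was the most abundant of them per kb. Its normalised counts were 2085, 1814 and 1334 in Klf5 LKO against 1088, 1312 and 1062 in control. The groups did not overlap, but Klf5 LKO 3 lay just above control 2. The log2 fold change was 0.58 (SE 0.18, 95% confidence interval 0.19 to 0.96) and did not pass (adjusted p = 0.215 with limma, 0.0526 with DESeq2). With the leukocyte score as a term it was 0.66 (SE 0.19).

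Tnf (chromosome 17, 35199381 to 35202007, minus strand), the founding ligand of the family, lies 3.1 kb from Ltb and had the opposite sign. Its normalised counts were 59.2, 58.9 and 136 in Klf5 LKO against 127, 86.9 and 265 in control. The groups overlapped, with control 3 highest, and the log2 fold change of -0.87 (95% confidence interval -1.90 to 0.17) did not pass (adjusted p = 0.561). It was -0.42 without control 3. Control 3 had the second lowest leukocyte score of the 6, 4.34, and the highest sum of 7 endothelial markers, 390 against 79.0 to 165 in the other libraries, and the part of these cells in its Tnf value was not tested. Tnfsf10, which codes for the death ligand TRAIL, had 250.1 to 354 in control and 272 to 326 in Klf5 LKO. Tnfsf12, the ligand of Tnfrsf12a, had 37.3 to 66.4 over the 6 libraries, and Tnfsf9 23.7 to 134. Tnfsf12 shares 48.3% of its merged exon length with the fusion gene Tnfsfm13, which is listed at 0.

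The other 9 ligands were below the mean of 10. Tnfsf4, Tnfsf18, Tnfsfm13 and Tnfsf11 had 0 reads in all 6 libraries, which allows up to 3 reads, or a normalised count of up to 2.24 to 4.74 depending on the library, by counting error only. Tnfsf13, Tnfsf13b, Tnfsf14, Tnfsf15 and Tnfsf8 had 0 to 15 reads a library.

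Receptors had lower means more often than higher ones: 12 of 15 tested had a lower fitted mean in Klf5 LKO, with a median log2 fold change of -0.65, where 49.2% of all genes tested had a higher mean. None passed, and 1 of the 15 had groups that did not overlap (6.67%, against 15.6% of all genes tested). The median is the value of Tnfrsf4, a gene with a mean of 13.2 and an SE of 0.99. The lowest values were -1.84 (Tnfrsf9) and -1.51 (Tnfrsf14), at means of 13.8 and 13.9. Receptors with a mean of at least 1000 had -0.33 (Tnfrsf1a), -0.04 (Tnfrsf12a), 0.11 (Ltbr) and 0.43 (Tnfrsf19). Tnfrsf23 and Tnfrsf21, at means of 400 and 544, had -0.96 and -0.73. The leukocyte markers had lower means in Klf5 LKO as well (14 of 14 tested). Lists for single leukocyte types were mixed. Of the macrophage markers 3 of 4 tested had lower fitted means, while 2 of 2 neutrophil markers and the 1 T and NK cell marker tested had higher ones. With the leukocyte score as a term, Tnfrsf21 was -0.85 and Tnfrsf4 -0.43 on the log2 scale, against -0.73 and -0.65 in the main fit. In the same fit Tnfrsf1a, Tnfrsf12a, Ltbr, Tnfrsf19 and Tnfrsf23 were -0.53, -0.06, 0.05, 0.46 and -0.88. The part of leukocyte RNA in the receptors' median was not tested further.

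All 3 tested death-domain receptors had lower means. Tnfrsf21 (chromosome 17, 43016555 to 43089189, plus strand), also known as death receptor 6, had normalised counts of 293, 488 and 462 in Klf5 LKO against 692, 657 and 671 in control. The control libraries lay close together, and every Klf5 LKO library was below them, with Klf5 LKO 1 the lowest. The log2 fold change was -0.73 (SE 0.21, 95% confidence interval -1.20 to -0.27), and it did not pass (adjusted p = 0.192 with limma, 0.0897 with DESeq2). Tnfrsf1a, which codes for the main signalling receptor of TNF and led this role per kb, had 1346, 2360 and 2011 in Klf5 LKO against 2051, 2379 and 2596 in control. Its log2 fold change of -0.33 (adjusted p = 0.584) was -0.10 without Klf5 LKO 1, the lowest library, -0.50 without Klf5 LKO 2 and -0.53 with the leukocyte score as a term. Tnfrsf10b, the mouse TRAIL receptor gene, had 228 to 305 in Klf5 LKO against 290 to 356 in control. Tnfrsf25 had 0 to 6 reads a library and was not tested.

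Of 14 receptors that bind TRAF proteins, 10 were tested and none passed. Tnfrsf12a, the receptor for Tnfsf12 and the most abundant receptor per kb, had 6582, 7208 and 8535 in Klf5 LKO against 8243, 6964 and 7656 in control. The groups overlapped throughout, and the interval of the log2 fold change (-0.04, 95% confidence interval -0.32 to 0.25) excludes a 2-fold change. Its sign turned without Klf5 LKO 1 or control 1, at 0.04 and 0.02. Ltbr, the receptor for lymphotoxin, had 2315, 2588 and 2387 in Klf5 LKO against 2157, 2206 and 2401 in control (log2 fold change 0.11, 95% confidence interval -0.16 to 0.37).

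Tnfrsf19 and Tnfrsf11a had the smallest p of this role, with opposite signs. Tnfrsf19, also called Troy, had 1273, 1443 and 945 in Klf5 LKO against 841, 1037 and 813 in control. Klf5 LKO 3 fell within the control range, and the log2 fold change of 0.43 (SE 0.18) did not pass (adjusted p = 0.414). Tnfrsf11a, also called RANK, the receptor for Tnfsf11, had 273, 490 and 626 in Klf5 LKO against 752, 880 and 518 in control. Control 3 fell within the Klf5 LKO range, and the log2 fold change of -0.68 (SE 0.29) did not pass (adjusted p = 0.429) and was -0.34 without Klf5 LKO 1. The transcript of its ligand had 0 reads in every library.

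Tnfrsf1b, the second TNF receptor, had 310 to 481 in Klf5 LKO against 465 to 552 in control. Cd40, a receptor of antigen-presenting cells that epithelia can also express, had 183 to 351 and 186 to 243. Tnfrsf18, Tnfrsf14, Tnfrsf9 and Tnfrsf4 are known mainly from lymphocytes. Their normalised counts were under 100 in every library, and in Tnfrsf9 they ran from 0 in Klf5 LKO 3 to 30.0 in control 2, with 29.8 in Klf5 LKO 2. The leukocyte scores of these 3 libraries were 4.72, 6.79 and 4.15. Log2 fold changes of Tnfrsf18, Tnfrsf14, Tnfrsf9 and Tnfrsf4 were -0.91, -1.51, -1.84 and -0.65. With the leukocyte score as a term they were -0.69, -1.75, -1.68 and -0.43. The 10 listed T and NK cell markers summed to 92.8 to 253 in Klf5 LKO against 119 to 154 in control, and 9 of the 10 had a mean under 10. The part of leukocyte RNA in the values of these 4 receptors was not tested further. Tnfrsf13b, Tnfrsf13c, Tnfrsf17 and Tnfrsf8, receptors of lymphocytes, were below the mean of 10, with 0 to 16 reads a library.

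Of the 4 decoy or soluble receptors, Tnfrsf22 and Tnfrsf23 were tested. They code for mouse receptors that bind TRAIL without a functional death domain and lie 16.1 kb apart on chromosome 7. Tnfrsf23 had 430, 233 and 175 in Klf5 LKO against 541, 367 and 654 in control, and Tnfrsf22 had 138, 93.2 and 57.5 and 171, 98.0 and 179. In both genes the libraries came in the same order, control 3, control 1, Klf5 LKO 1, control 2, Klf5 LKO 2 and Klf5 LKO 3, and the groups overlapped. The log2 fold changes were -0.96 (SE 0.32, adjusted p = 0.272) and -0.67 (SE 0.40, adjusted p = 0.599), and that of Tnfrsf22 was -0.34 without Klf5 LKO 3. The 2 genes share 18.0% of the 50-base strings in Tnfrsf23 transcripts, so how reads divide between them is uncertain. Tnfrsf26 had 0 to 12 reads a library. Tnfrsf11b, the soluble decoy for Tnfsf11 known as osteoprotegerin, had 36 reads in Klf5 LKO 2 and 0 in the other 5 libraries.

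**Figure D4:**
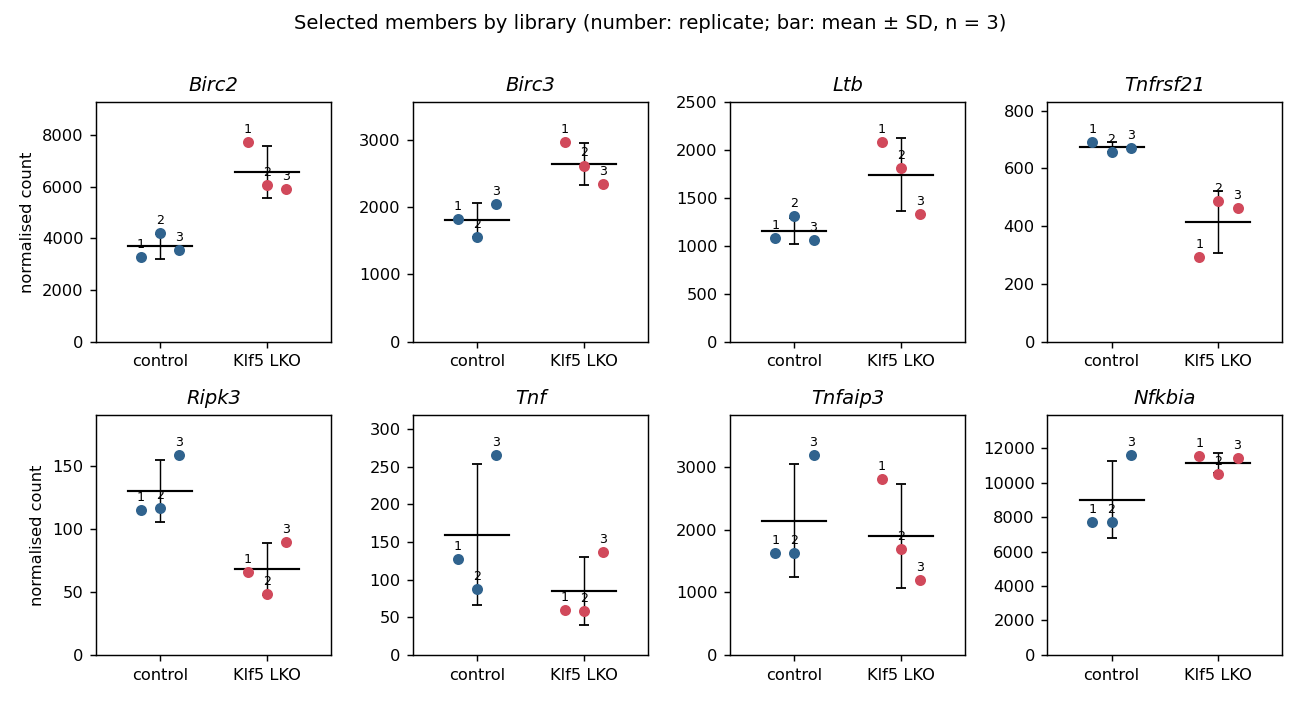
Normalised counts of 8 members by library on axes that start at 0, with control in blue and Klf5 LKO in red, the replicate number beside each point and a bar for the mean ± SD (n = 3). Birc2, Birc3 and Ltb lie higher and Tnfrsf21 and Ripk3 lower in all 3 Klf5 LKO libraries, while in Tnf and Tnfaip3 the groups overlap, with control 3 the highest library of both.

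All 11 adaptors were tested, and 0 passed in either direction. Ripk3 (chromosome 14, 55784995 to 55788865, minus strand), the kinase gene needed for necroptosis, a caspase-independent form of cell death, had normalised counts of 65.7, 48.4 and 89.4 in Klf5 LKO against 115, 117 and 158 in control. The groups did not overlap. The log2 fold change was -0.96 (SE 0.37, 95% confidence interval -1.76 to -0.15), and it did not pass (adjusted p = 0.360). With the leukocyte score as a term it was -1.04 (SE 0.41). Its partner kinase Ripk1 was level: 1390, 1270 and 1285 in Klf5 LKO against 1262, 1441 and 1204 in control, a log2 fold change of 0.02 (95% confidence interval -0.28 to 0.32).

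Traf1, the TRAF protein gene that lymphocytes induce on activation, had 3.29, 29.8 and 36.2 in Klf5 LKO against 95.6, 83.8 and 30.5 in control. The highest values stood in control 1 and control 2, which also had the highest leukocyte scores, while Klf5 LKO 1, with the next score of 6.60, had the lowest. Its log2 fold change of -1.90 (SE 0.83, adjusted p = 0.436) rests on few reads. It was -0.91 without Klf5 LKO 1 and -2.02 (SE 0.94) with the leukocyte score as a term. The part of leukocyte RNA in this value was not tested further.

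The TRAF genes that signal from most receptors differed little. Traf2, the main carrier of Birc2 and Birc3, had 1407, 865 and 1207 in Klf5 LKO against 895, 883 and 1135 in control (log2 fold change 0.24, 95% confidence interval -0.18 to 0.66). Traf3, which bridges Map3k14 to the ligases, had a log2 fold change of -0.21 (-0.58 to 0.17). Traf6, which also serves Toll-like and interleukin receptors, had 0.06 (-0.38 to 0.50). Traf4, the adaptor highest per kb, had means of 1317 and 1316 and a log2 fold change of 0.00 (-0.30 to 0.30), so its sign changed between fits. Traf5, Traf7 and the adaptors Tradd and Fadd had log2 fold changes of 0.23, 0.11, 0.05 and -0.42, and none had an adjusted p under 0.708. The 95% confidence interval of Fadd (-1.14 to 0.31) reached past a 2-fold change, and that of Traf5 ran from -0.45 to 0.90.

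Of the 6 NF-kB pathway genes none passed, and 5 had a higher and 1 a lower mean. Nfkbia, a direct target of NF-kB as well as its inhibitor, had 11564, 10505 and 11443 in Klf5 LKO against 7714, 7735 and 11601 in control. Control 1 and control 2 stood below the Klf5 LKO libraries, and control 3 stood above them all. The log2 fold change was 0.34 (SE 0.16, 95% confidence interval -0.01 to 0.68, adjusted p = 0.475). It was 0.53 without control 3 (adjusted p = 0.151) and 0.21 (SE 0.15) with the leukocyte score as a term. Nfkb1, which codes for the p50 precursor, had 1478, 1160 and 1369 in Klf5 LKO against 1092, 966 and 1226 in control (0.29 on the log2 scale, SE 0.15, adjusted p = 0.550).

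Tnfaip3, which codes for the ubiquitin-editing enzyme A20 and is induced by NF-kB to end the signal, varied more between libraries of one group than between groups. It had 2812, 1688 and 1191 in Klf5 LKO against 1624, 1625 and 3195 in control (log2 fold change -0.19, 95% confidence interval -0.86 to 0.47). The alternative route showed small differences: Map3k14 had a log2 fold change of 0.07 (-0.28 to 0.43), Nfkb2 of 0.06 (-0.30 to 0.42) and Relb of 0.12 (-0.21 to 0.44). These intervals exclude a 2-fold change in either direction.

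**Figure D5:**
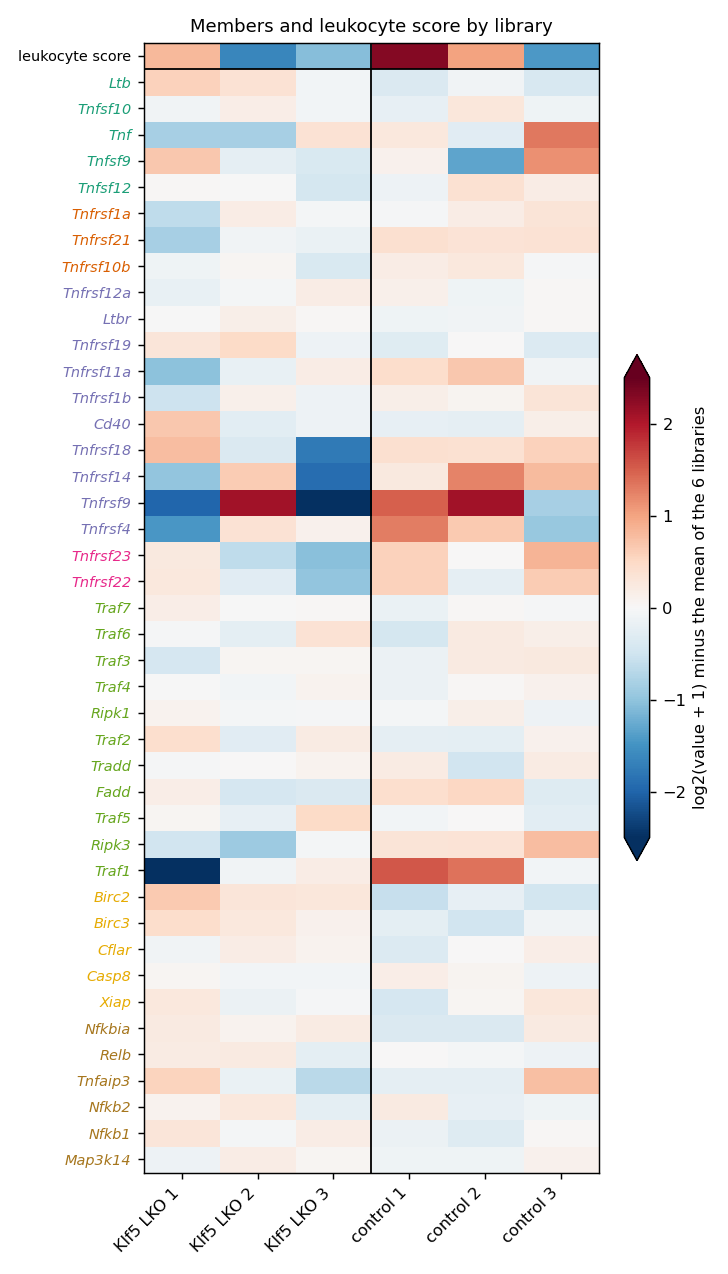
Log2(value + 1) of each member, minus its mean over the 6 libraries, by library (columns) and role (label colours), with the leukocyte score in the top row; red is above and blue below the mean, and the colour scale ends at 2.5 either way. Birc2 and Birc3 are red in the 3 Klf5 LKO columns, and the strongest colours belong to low members such as Tnfrsf9 and Traf1.

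A further list of TNF and NF-kB signalling genes outside the family symbols held 43 listed genes. Of these, 36 were tested and 0 passed in either direction. The median log2 fold change of the list was 0.09, and groups did not overlap in 4 of the 36 (11.1%, against 15.6%). Rel, an NF-kB subunit gene best known from lymphocytes, had the smallest p: 113, 107 and 66.0 in Klf5 LKO against 40.5, 20.5 and 22.4 in control. Every Klf5 LKO library was above every control library, and the log2 fold change of 1.77 (SE 0.48) did not pass (adjusted p = 0.156 with limma, 0.0635 with DESeq2). Map3k7, the kinase gene TAK1 that acts between Ripk1 and the IkB kinases, had 1108, 1286 and 1006 in Klf5 LKO against 1369, 1612 and 1579 in control (log2 fold change -0.43, SE 0.15, adjusted p = 0.287). The genes named next were chosen after their values were seen. The death receptor Fas had a log2 fold change of 0.31 (adjusted p = 0.840). The ligand genes Fasl, Cd40lg and Cd70 had 0 reads in every library.

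Of 36 listed NF-kB target genes, 32 were tested and 0 passed, with a median log2 fold change of 0.03. Groups did not overlap in 9 of the 32 (28.1%, against 15.6%), 7 with higher and 2 with lower values in Klf5 LKO. Csf1, the growth factor gene for macrophages, had 4043, 3310 and 2332 in Klf5 LKO against 1688, 1781 and 1969 in control. Ccl5, a chemokine gene for T cells, had 343, 273 and 361 and 131, 145 and 43.7. All 3 Klf5 LKO libraries were above all 3 controls in both. Their log2 fold changes of 0.80 (SE 0.18) and 1.77 (SE 0.41) did not pass in the main limma fit (adjusted p = 0.0841 and 0.0935) and passed with DESeq2 (adjusted p = 0.000681 and 0.00477). In the limma fit with the leukocyte score as a term, Ccl5 passed (2.19, SE 0.36, adjusted p = 0.0255) and Csf1 did not (0.82, SE 0.21, adjusted p = 0.135). Vcam1, an adhesion molecule gene chosen after its values were seen, was lower in all 3 Klf5 LKO libraries without passing, at -0.28 on the log2 scale (adjusted p = 0.517), with no overlap between groups.

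Precision followed the level of the gene. The 95% confidence interval of the log2 fold change lay within a 2-fold change either way for 27 of the 42 members, among them 19 of the 20 with a mean of at least 1000 and none (0) of the 8 with a mean under 100. The exception at the higher level was Birc2, with an SE of 0.14. Its interval of 0.52 to 1.14 reached past 2-fold because its log2 fold change was 0.83, and not because it was wide.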

How the data were processed

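Each single-end library started from 4 ng of RNA and went through 10 and 7 PCR cycles, per the labels' protocols, which adds noise for low genes. The submitters' processing notes name mm10, TopHat, Bowtie2 and DESeq2. How reads were counted and filtered, and on which annotation, is not given in the sources used here, and overlapping genes or near-identical copies may share reads. The authors deposited a signal table, in which each library's read counts are scaled by its size factor. The comparison table deposited by the authors holds log2 fold changes (shrunken, judged from the values), a Wald score and p-values. Whole reads were recovered from 100% of the signal values within a tolerance of 0.001.

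The main test was limma 3.58.1 (lmFit, eBayes with trend; R 4.3.3) on log2(value + 1) over 13490 genes (mean of 10 or more), two-sided, with Benjamini-Hochberg adjustment over all of them and a threshold of 0.05. Where no tool is named, an adjusted p-value comes from this fit. For low genes the size of the fold change depends on the pseudocount and on the fit, in either direction. Traf1 was -1.97, -1.90 and -1.58 on the log2 scale at pseudocounts of 0.5, 1 and 5, and -1.60 with DESeq2. Tnfrsf9 was -1.84 in the main fit and -0.76 with DESeq2, while Tnfrsf4 was -0.65 and -0.78. DESeq2 1.42.0, the edgeR 4.0.16 quasi-likelihood test and limma-voom on recovered reads, 2 other scalings, 2 filters, pseudocounts of 0.5 and 5, a replicate block, a leukocyte term and leaving out each library were alternatives. The tests were checked on simulated data. The members, lists and tests were chosen with earlier results of these data known. Library values are given for members that passed in any tool, the 2 with the smallest p and the highest per kb of each role, and for further members. Positions and exon lengths come from GENCODE M21 (GRCm38, the assembly of mm10), and promoters from RefSeq (GRCm38.p6) for 34 of 42 members.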

Additional observations from a re-analysis of the deposited data

How the results depend on the processing

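The count of members called higher in Klf5 LKO was 1 and became 2 with DESeq2 on the recovered reads, where Birc3 also passed. It ranged from 0 to 1 when each library was left out in turn, 0 without control 1, control 2 or control 3, and stayed 1 in the other fits. The count of members called lower was 0 in all fits, those with DESeq2, edgeR and limma-voom included. The number of genes called over the whole table also moved, from 88 to 335 with DESeq2, 21 without control 1, 14 without control 2, 49 without control 3 or Klf5 LKO 3 and 58 with the leukocyte term. Over the 16 members with full values and 17 other fits, 260 values kept their direction and side of the threshold, 3 lost the call (Birc2), 1 gained it (Birc3) and 7 changed sign. Traf1 gave no value at the mean of 50, which it does not reach. The sign changes were in members with values near 0. Traf4 was -0.00509 with upper quartile scaling, -0.00222 with edgeR, -0.0519 with the leukocyte term and between -0.0713 and 0.0602 when 1 library was left out, and Tnfrsf12a was between -0.142 and 0.0450 when 1 library was left out. The cause was not tested.

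With the replicate number as a block, Birc2 kept its log2 fold change of 0.83 (adjusted p = 0.0328) and its call was the only one among the members, while the calls over all genes rose from 88 to 110. The correlations of deviations between same-numbered libraries were 0.18, -0.01 and 0.11, so the numbers were not taken as a pairing. Klf5 LKO 1, 2 and 3 correlated best with control 1, 3 and 3. The 95% confidence intervals of the 8 members with a mean under 100 all reached past a 2-fold change in at least 1 direction, so the sizes of their differences are known less closely.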
